A study of Mus musculus with 2 samples.

Results

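The genes described here are those of the Wnt pathway: 50 protein-coding genes on chromosomes 1 to 19, of 20661 such genes in the annotation. The rule uses symbols and no measured value. It took genes named Wnt, Fzd or Dkk with a number, Dvl and Sfrp genes, and 10 further named genes. By role they were 19 ligands (Wnt), 12 receptors (Fzd, Lrp5 and Lrp6), 8 secreted inhibitors (Sfrp and Dkk) and 11 intracellular effectors (Dvl, Axin, Apc, Ctnnb1 and the TCF/LEF factors). Wnt ligands are secreted lipid-modified proteins that bind a Frizzled receptor and an Lrp5 or Lrp6 co-receptor. The signal passes through Dishevelled and stops the Axin and Apc complex from destroying β-catenin, the product of Ctnnb1, which then enters the nucleus and acts with TCF/LEF factors. In the heart the pathway is known for its part in cardiac specification, in valve formation and in the response to injury.

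The mark mapped was H3R17me2a, the asymmetrically dimethylated arginine 17 of histone H3 that the methyltransferase Carm1 deposits. Chromatin immunoprecipitation and sequencing used an antibody named for H3R17me2 and frozen mouse hearts, wild type and 21 days old. The 2 samples form 1 group, and the labels do not say whether they came from separate animals. No treatment or second genotype is part of the labels, although the sample titles carry the name carm1, and the series text calls the hearts neonatal. The source label names cardiac fibroblasts and the tissue label names heart. Each sample came with its own list of peaks, called list 1 (21496 peaks) and list 2 (38012 peaks). The lists appear to share their reads to a large extent. Of 20978 overlapping pairs of peaks, 42.1% had their summits at 1 and the same base. In 1500 sampled pairs with the same summit the recovered reads differed by 2 or fewer in 81.5% of them. The read scale of list 2 was itself fitted on such pairs, by taking the list 1 reads to hold in list 2. This percentage is therefore not independent evidence of shared reads. The samples are therefore counted as 1, a value given for both lists carries no replicate error, and no mean, SD or test between samples is given.

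Gene-end peaks were found at most cardiomyocyte markers and at no fibroblast marker in both lists. A gene is called marked at an end when a peak of each list comes within 1000 bp of the first or the last base of the gene. Of 8 cardiomyocyte markers, 6 were marked in this way (Myh6, Actc1, Tnnt2, Tnni3, Ttn and Pln), and Ryr2 and Nppa had an end peak in list 2 alone. None of 8 fibroblast markers, 6 endothelial, 4 macrophage and 3 epicardial markers was marked, and 1 of 6 mural markers was (Acta2). The fibroblast marker Col1a1 and the epicardial marker Wt1 had an end peak in list 2 alone. Whether cells other than cardiomyocytes contributed to the Wnt pathway peaks was not tested. In whole tissue, few cells with the mark and a low level of the mark in many cells cannot be told apart.

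As a group, Wnt pathway genes carried the mark at their ends about as often as other genes. A gene-end peak in both lists was found at 20 of the 50 members (40.0%), and at 40.1% of all 20661 protein-coding genes. Body marking means that a list 1 peak overlapping a list 2 peak lay over the gene. It was found at 24 members (48.0%) against 44.6% of all genes. With only peaks of a −log10 p of 5 or more, it was found at 18 members (36.0% against 38.9%). No peak of either list met 16 members at their ends or in their bodies (32.0% against 42.3%). A body peak without a marked end was found at 5 members (Axin2, Dkk3, Tcf7, Wnt5a and Wnt6), against 6.90% of all genes. An end peak in 1 list alone, always list 2, was found at 5 (Fzd7, Lef1, Sfrp1, Wnt1 and Wnt10b), against 8.17% of all genes. The remaining genes were 4 with a body peak in list 2 alone (Axin1, Dvl1, Lrp5 and Wnt9b). Among the members with peaks in list 2 alone, only Fzd7 had one with a −log10 p of 5 or more (40.7). The others lay below the lowest value of list 1, but list 2 p-values rest on reads multiplied by 0.618. Near-equal reads and background thus give a lower −log10 p in list 2. A peak of 9 reads had 4.10 at Wnt1 in list 2 and 6.91 inside Apc in list 1, over 1.10 and 1.01 background reads. These values therefore do not place the list 2 peaks below those of list 1 in reads.

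The roles differed in how many of their genes were marked. Receptors were marked at an end in 8 of 12 (66.7%), effectors in 6 of 11 (54.5%), ligands in 6 of 19 (31.6%) and secreted inhibitors in 0 of 8. These stand beside the background of 40.1%. In list 1 alone the counts were the same (background 40.6%). In list 2 alone they were 9 receptors, 7 effectors, 8 ligands and 1 inhibitor, against 47.7% of all genes. When only peaks with a −log10 p of 5 or more were taken from the lists, 6 of 11 effectors (54.5%), 5 of 12 receptors (41.7%) and 4 of 19 ligands (21.1%) were marked (background 34.2%). Effectors then stood above receptors, the reverse of the order without this limit. List 1 has no peak below the limit, so it removed peaks of list 2 alone, and list 1 by itself keeps receptors first. The receptors no longer marked were Fzd1, Fzd6 and Fzd8, and the ligands Wnt3a and Wnt5b. For equal reads the limit is stricter in list 2, whose p-values rest on reads multiplied by 0.618. These receptors had near-equal reads in the lists, but their −log10 p was lower in list 2. It was 6.41 and 3.16 at Fzd1, 5.62 and 2.33 at Fzd6, and 10.45 and 3.53 at Fzd8. The changed order of roles is therefore not a result about deeper peaks. In the upper 50% of peaks by fold, 3 effectors, 2 ligands and 1 receptor were marked (background 12.6%). Effectors also stood above receptors there. By gene start 6 of 9 effectors and 3 of 6 receptors were marked. The marked receptors Fzd2, Fzd3, Fzd6, Fzd8 and Lrp6 had no listed start, nor had Lrp5 or the effectors Apc and Axin1. The gene-start counts thus leave out most marked receptors and do not bear on the order of the roles. Over all roles, a window of 500 bp marked 15 members (37.6% of all genes), a window of 3000 bp 22 (44.5%), peak midpoints 19 (38.4%) and a −log10 q of 2 or more 15 (35.3%). The roles are small groups of genes and no test was made between them.

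**Figure D1:**
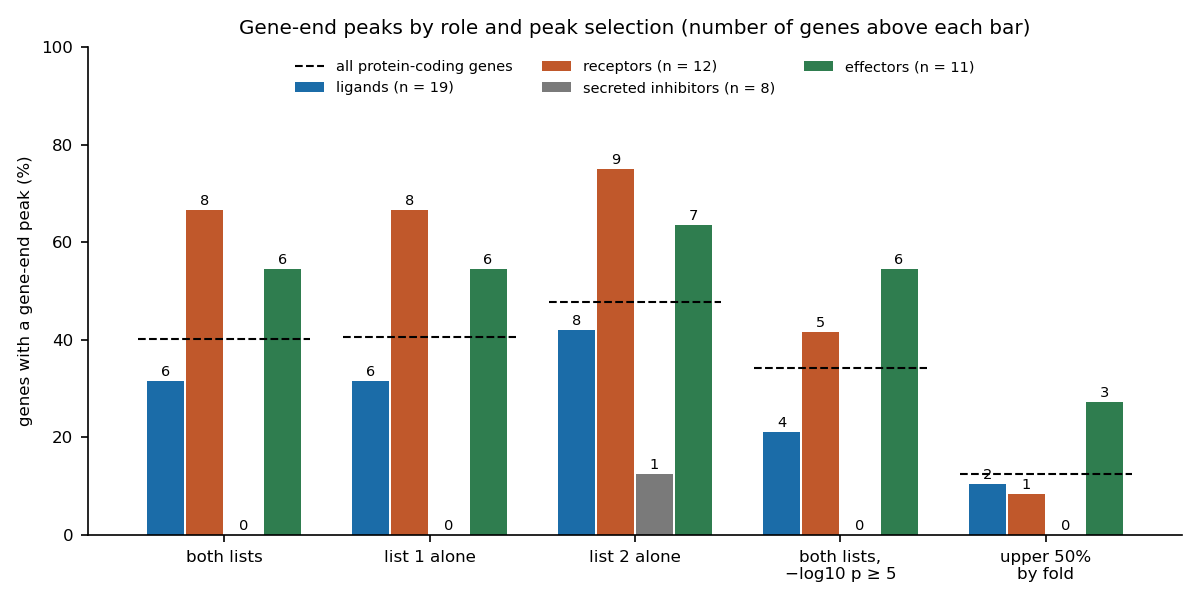
Share of genes with a gene-end peak (vertical axis, percent) by role under 5 selections of peaks, with the number of genes above each bar and the share of all 20661 protein-coding genes as a dashed line. Receptors stand highest in both lists together (8 of 12 against 6 of 11 effectors), and effectors stand highest at a −log10 p of 5 or more (6 of 11 against 5 of 12 receptors).

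Fold enrichment and read depth ordered the roles differently. Fold is the authors' value for each peak, its signal over the background at its summit, and the reads at each summit were recovered from the fold and p-value of the peak. Among marked members the strongest gene-end peak had a median fold of 4.06 in list 1 and 3.44 in list 2, against 4.15 and 3.88 over the 8280 marked protein-coding genes. Effectors had medians of 5.17 and 4.56, ligands 4.26 and 3.65, and receptors 3.05 and 2.98. The deepest gene-end peak of each marked gene held a median of 57.0 reads in list 1 and 59.0 in list 2 over all marked genes. It held 70.0 and 69.0 reads at the effectors, 54.5 and 53.0 at the receptors and 18.5 and 19.5 at the ligands. Receptors thus had folds below those of the ligands over more reads. The median background beneath those peaks, in units of ChIP reads, was 16.5 in list 1 and 13.7 in list 2 at receptors and 2.95 and 4.31 at ligands. A ligand median of 18.5 reads is above that of 8.42% of all marked genes in list 1.

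**Figure D2:**
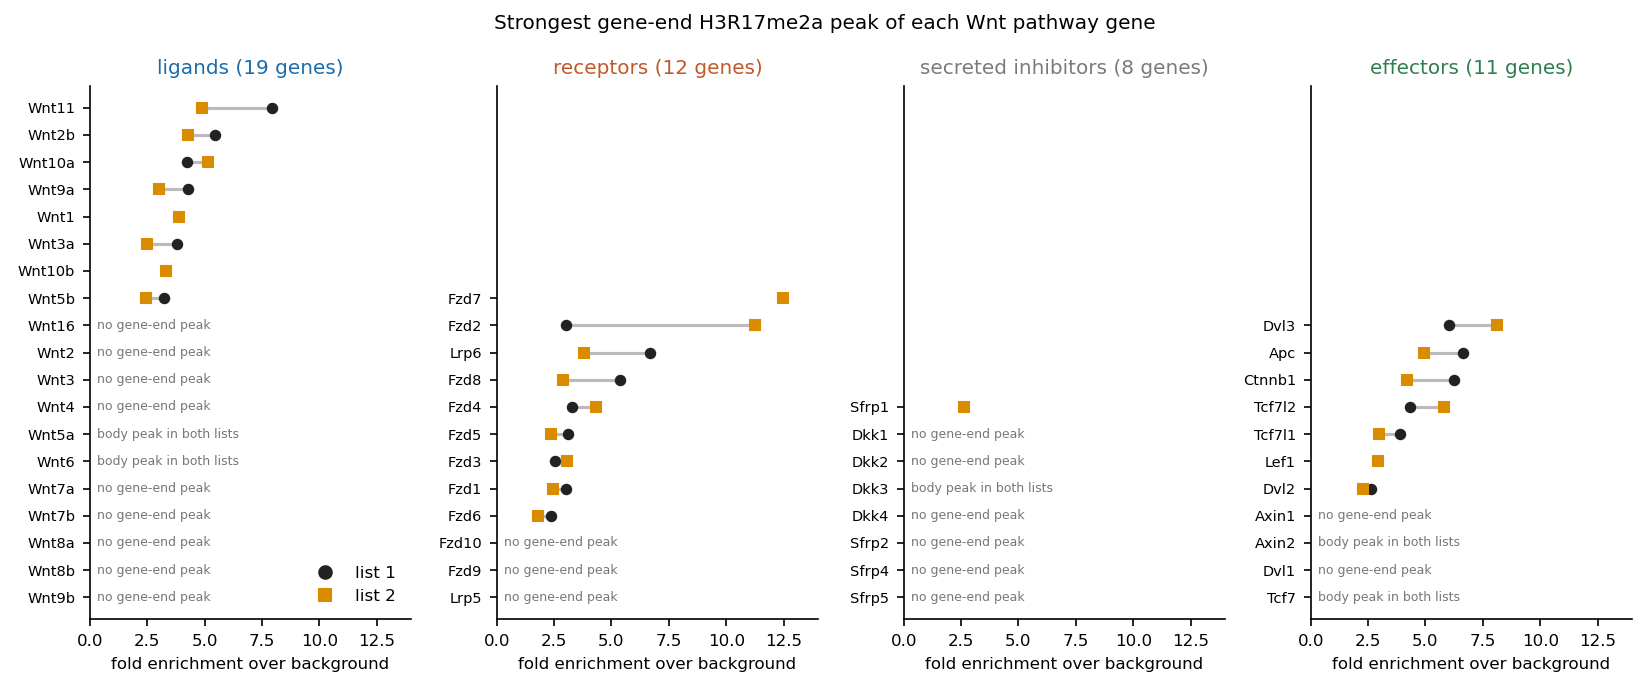
Fold enrichment over background (horizontal axis, linear) of the strongest gene-end peak of each of the 50 genes in list 1 (circles) and list 2 (squares), in a panel for each role. Fzd7 (12.5 in list 2, none in list 1) and Fzd2 (3.00 and 11.2) stand apart from the other genes, which have folds from 1.78 to 8.13.

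Promoter sequences are printed for 5 marked genes, to show the letters around starts that carry a peak. Among marked genes with an entry in the promoter table, Wnt11, Fzd4 and Dvl3 had the lowest summed rank of fold in their role, and Tcf7l2 and Ctnnb1 the next lowest. The rank of Ctnnb1 comes from peaks at its other end. That of Dvl3 in list 2 comes from a peak 1202 bp after the start, outside the printed bases. Likewise, that of Tcf7l2 in list 1 comes from a peak 1402 bp after the start. The sequences come from RefSeq, build GRCm38.p6, which numbers these chromosomes as mm10 does. Each sequence holds the 250 bases before and 50 after a gene start and is overlapped by a peak of both lists, in whole at Fzd4 and Tcf7l2 and in part at the others. At Dvl3 83 bases lay under the list 1 peak and 242 under that of list 2, at Ctnnb1 130 and 136, and at Wnt11 246 and 215. Capitals mark every match, on either strand, of the GC box GGGCGG, the TATA box TATAAA, the TCF/LEF core CTTTGAT and the E-box CACGTG, and matches that overlap run together.
Wnt11, chr7:98834862-98835161, plus strand: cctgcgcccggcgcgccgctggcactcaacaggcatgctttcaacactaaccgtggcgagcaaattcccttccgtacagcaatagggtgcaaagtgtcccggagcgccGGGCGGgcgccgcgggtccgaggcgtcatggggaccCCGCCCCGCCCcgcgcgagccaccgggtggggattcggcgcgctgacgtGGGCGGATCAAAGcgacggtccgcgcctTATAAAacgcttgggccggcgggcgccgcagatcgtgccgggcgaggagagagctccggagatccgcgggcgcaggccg
Fzd4, chr7:89404116-89404415, plus strand: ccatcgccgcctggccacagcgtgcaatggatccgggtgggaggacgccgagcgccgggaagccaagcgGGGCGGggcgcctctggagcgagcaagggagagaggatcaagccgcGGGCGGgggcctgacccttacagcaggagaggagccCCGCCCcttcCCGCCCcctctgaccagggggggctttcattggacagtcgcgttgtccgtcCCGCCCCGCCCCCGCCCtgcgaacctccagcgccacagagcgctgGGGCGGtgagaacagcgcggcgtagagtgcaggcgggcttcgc
Dvl3, chr16:20516736-20517035, plus strand: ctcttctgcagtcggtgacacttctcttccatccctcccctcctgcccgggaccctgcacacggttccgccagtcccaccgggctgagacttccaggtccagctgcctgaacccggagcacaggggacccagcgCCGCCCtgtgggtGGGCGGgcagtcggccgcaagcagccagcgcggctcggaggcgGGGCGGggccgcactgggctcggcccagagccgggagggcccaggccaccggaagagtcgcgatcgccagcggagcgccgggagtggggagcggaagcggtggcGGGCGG
Tcf7l2, chr19:55741560-55741859, plus strand: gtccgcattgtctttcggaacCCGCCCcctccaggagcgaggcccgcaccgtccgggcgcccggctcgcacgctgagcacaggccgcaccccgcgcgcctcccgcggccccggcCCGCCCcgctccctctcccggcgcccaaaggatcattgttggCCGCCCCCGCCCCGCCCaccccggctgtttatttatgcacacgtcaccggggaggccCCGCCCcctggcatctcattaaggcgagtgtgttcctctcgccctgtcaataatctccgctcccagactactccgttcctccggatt
Ctnnb1, chr9:120933150-120933449, plus strand: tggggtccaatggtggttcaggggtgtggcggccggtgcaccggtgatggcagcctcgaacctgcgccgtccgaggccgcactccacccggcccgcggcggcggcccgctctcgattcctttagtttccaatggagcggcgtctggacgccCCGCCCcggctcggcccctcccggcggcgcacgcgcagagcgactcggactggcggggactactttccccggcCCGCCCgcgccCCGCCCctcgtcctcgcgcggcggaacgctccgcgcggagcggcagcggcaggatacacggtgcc

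All 5 sequences held GC boxes, from 3 matches at Ctnnb1 to 8 at Fzd4. Wnt11 alone of the 5 had a TATA box and a TCF/LEF core. Over the 43 promoters listed for 34 members, a GC box was found in 79.1%, and in 76.7% of those without a peak in both lists. It was found in 47.0% of all 20084 promoters of protein-coding genes and 71.0% of those with a peak in both lists. The median GC content was 70.0% in member promoters, 57.0% in all and 63.0% in all with a peak in both lists. The part of base content in the GC box shares was not tested. The TCF/LEF core was found in 2 member promoters (4.65%), of Wnt11 and of a start inside Wnt5b, against 3.26% of all. A TATA box was found in 18.6% against 12.7%, and an E-box in 9.30% against 7.89%. A match describes the letters and is not evidence of binding.

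As a group, member promoters were rich in CpG dinucleotides whether or not they carried a peak, but those of the secreted inhibitors were not. CpG is expressed as the observed count over that expected from the C and G content. Its median was 0.75 in member promoters and 0.59 in all promoters. By role it was 0.86 for receptors, 0.79 for ligands, 0.79 for effectors and 0.56 for the 4 inhibitor promoters (0.33 to 0.68). Over all promoters it was 0.83 in those with a peak in both lists and 0.32 in those without, whereas the 13 member promoters with a peak had 0.89 and the 30 without had 0.71. Of member promoters at 0.75 to 1.0, 6 of 15 had a peak in both lists, against 67.0% of all promoters in that range. At 0.5 to 0.75 it was 1 of 12 against 45.2%, and at 1.0 and above 5 of 8 against 76.1%. Below 0.5 it was 1 of 8 against 7.0%. The shares of members were thus lower in the 3 upper ranges. Wnt4 (0.98, no peak), Wnt7a (0.97, no peak), Fzd10 (0.99, no peak) and Fzd9 (1.18, no peak) were among the CpG-rich promoters without the mark. Some members have several starts, so these promoters are not independent.

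**Figure D3:**
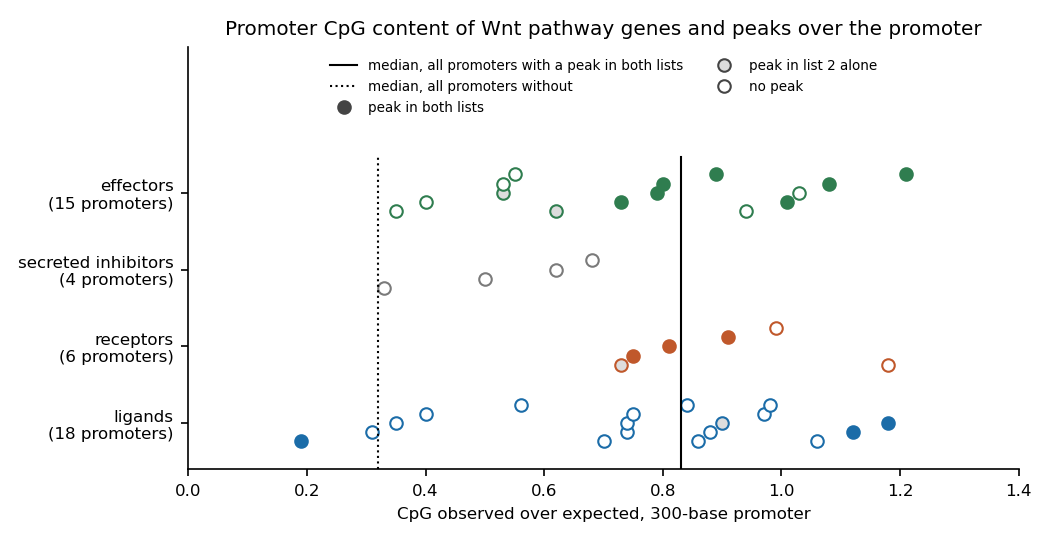
CpG observed over expected (horizontal axis) in the 43 promoters of 34 members, by role, filled where a peak of both lists overlaps the promoter, grey for list 2 alone and open for none. Several ligand promoters without a peak lie to the right of the solid line, the median of all promoters with a peak in both lists (0.83).

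Among the 19 ligands, Wnt11 had the strongest gene-end peak in list 1, and Wnt10a in list 2. Wnt11 (chromosome 7, 98835084 to 98854747) acts mainly through the β-catenin-independent branch and is known for its role in heart morphogenesis. Its peak had a fold of 7.95 in list 1 from 30 reads and 4.89 in list 2 from 29 reads. The summits lay 9 bp before and 1 bp after the listed start. Wnt9a (chromosome 11, 59306849 to 59333552), a ligand of the canonical branch, had more reads, 63 and 67, and folds of 4.27 and 3.03 over a background of 14 and 21 reads. Both summits lay within 50 bp of its start. Wnt11 and Wnt9a were the ligands with a peak over a listed start in both lists.

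Wnt2b, Wnt10a and Wnt3a had 9 to 17 reads at their strongest end peak. Wnt2b (chromosome 3, 104944805 to 104961709), a canonical ligand, had folds of 5.47 and 4.26 from 10 reads in each list, at a summit 826 bp before the start. The exact 95% counting interval of 10 reads is 4.80 to 18.4. In list 2 a further peak of 15 reads (fold 2.97) covered the Wnt2b start. Wnt10a (chromosome 1, 74792019 to 74804176) had 16 and 17 reads and folds of 4.25 and 5.16 at the end with the higher coordinate. Its strand was not used here, since the promoter table has no entry for it. Wnt3a (chromosome 11, 59248036 to 59290751), the ligand most used to stimulate the canonical pathway in culture, had 9 reads in each list and folds of 3.80 and 2.49, with summits 702 and 350 bp after the start.

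Wnt5b was the ligand with the most peaks, and most of them lay inside the gene. Wnt5b (chromosome 6, 119432531 to 119544824) belongs to the β-catenin-independent ligands. It had 6 peaks in list 1 and 8 in list 2. Its strongest peak had the highest fold of any peak at the 50 genes in list 1, 15.3 from 31 reads, and 9.16 in list 2 from 28 reads (119448869 to 119449179 in list 1). The peak is within the top 0.972% of list 1 and 3.66% of list 2 by fold. It lay inside the span and outside the gene-end windows, with its summit 266 bp (list 1) and 268 bp (list 2) after an internal listed start. Before a second internal start, and not over it, lay a peak of each list with the summit 186 bp away and folds of 4.33 and 4.21. A further list 1 peak of 13 reads lay 797 bp before that start with a fold of 6.96. At the remaining listed start, near the end of the span, the folds were only 3.24 and 2.43 from 21 and 22 reads. Wnt5b is marked at its end through this weaker peak, and an end of the protein-coding gene model Gm52875 lies within 2000 bp of it, so the peak cannot be assigned to Wnt5b alone.

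Ligands marked only in the body were Wnt5a and Wnt6. Wnt5a, the best known β-catenin-independent ligand, had a peak of 10 reads in each list, 6365 and 6699 bp from the end with the lower coordinate, with folds of 4.18 and 4.26. Wnt6 had 10 reads in each list and folds of 5.47 and 3.59, 1369 bp after its listed start. Wnt1 (fold 3.90, 9 reads) and Wnt10b (3.34, 8 reads) had an end peak in list 2 alone, and Wnt9b a body peak in list 2 alone (3.90, 9 reads). Wnt16, Wnt2, Wnt3, Wnt4, Wnt7a, Wnt7b, Wnt8a and Wnt8b had no peak in either list. The nearest shared peak lay from 28.8 kb (Wnt7b) to 301 kb (Wnt16) from these 8 genes.

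Marked receptors varied in width and fold. The median width of their strongest gene-end peak was 674 bp in list 1 and 696 bp in list 2, against 528 and 685 bp over all marked genes. The co-receptor Lrp6 (chromosome 6, 134446476 to 134566913) had the deepest receptor peak, 146 reads in list 1 and 152 in list 2, with folds of 6.68 and 3.80. It covers the end with the higher coordinate (134566562 to 134567324 in list 1). Its paralogue Lrp5 had a single body peak of 9 reads in list 2 (fold 3.28) and none in list 1. Of the 2 co-receptors, only Lrp6 was marked.

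Of 10 Frizzled genes, 7 were marked in both lists. Fzd4 (chromosome 7, 89404366 to 89410110), which also serves as the receptor of Norrin in vessels, had wide peaks of 1440 and 2037 bp across its start, with folds of 3.27 and 4.33 from 48 and 47 reads. An end of Tmem135 lies within 2000 bp of the Fzd4 peak, so the peak cannot be assigned to Fzd4 alone. Fzd3 (chromosome 14, 65192441 to 65262463), a receptor of planar polarity signalling, had 73 reads in each list and folds of 2.55 and 3.08. Fzd5 (chromosome 1, 64730558 to 64737750) had 61 and 59 reads, folds of 3.10 and 2.34 and the same summit, 50 bp after its start, in both lists. These genes had over 40 reads in both lists and folds under 5.

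Fzd1, Fzd6 and Fzd8 had shallower peaks. Fzd1 (chromosome 5, 4753839 to 4758216) had 23 and 22 reads and folds of 3.00 and 2.43. Fzd6 (chromosome 15, 39006149 to 39038192) had 32 and 33 reads and the lowest folds of the marked members, 2.36 and 1.78. Fzd8 (chromosome 18, 9212856 to 9216201) had 18 and 17 reads and folds of 5.37 and 2.88, with summits 1264 and 1189 bp from the end with the lower coordinate. Fzd9 and Fzd10 had no peak in either list, and the nearest shared peak lay 60.9 kb and 416 kb away.

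Fzd2 and Fzd7 were the members whose lists disagreed most. Fzd2 (chromosome 11, 102604431 to 102608058) had 65 reads in each list with summits 2 bp apart, but a fold of 3.00 in list 1 and 11.2 in list 2. The background there was 21 reads in list 1 and 4.32 in list 2, a ratio of 4.86, whereas the reads were equal. Among 36 pairs of overlapping member peaks with summits within 50 bp, Fzd2 alone had a background more than 2-fold higher in list 1. Over 2997 pairs sampled from all peaks of the lists, at genes or not, 5.24% did. Fzd7 (chromosome 1, 59482147 to 59486955) had a peak of 79 reads and fold 12.5 across its start in list 2 (59481506 to 59482547), over a background of 4.85 reads. It ranks in the top 1.30% of list 2 by fold. List 1 had no peak within 188 kb of it. Of the 496 list 2 peaks with at least this fold, 80.6% overlapped a list 1 peak and 96 did not.

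**Figure D4:**
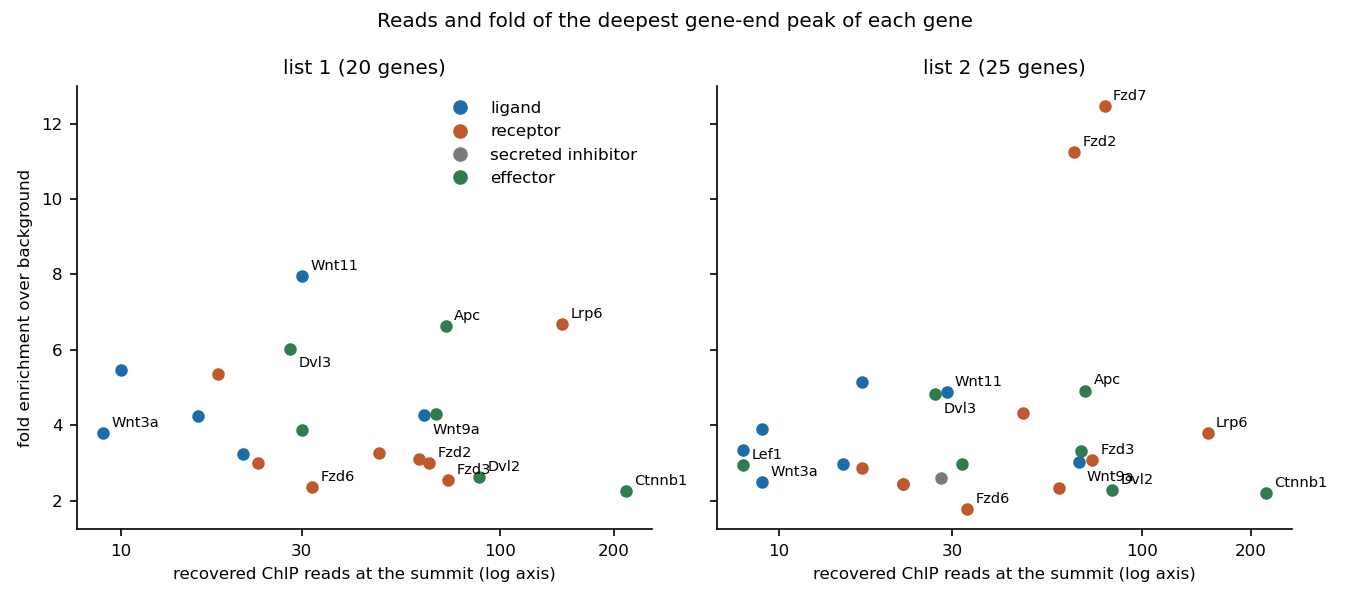
Fold enrichment (vertical axis) against recovered ChIP reads at the summit (horizontal axis, log scale) for the deepest gene-end peak of each gene, in list 1 (20 genes) and list 2 (25 genes), coloured by role. Ctnnb1 has the most reads (215 and 220) at a fold near 2.2, and Fzd2 moves from a fold of 3.00 to 11.2 with 65 reads in both lists.

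Secreted inhibitors were the role with the least marking. Outside the cell, Sfrp proteins bind Wnt ligands and some Dkk proteins, such as Dkk1, bind the Lrp co-receptors. Dkk3, the divergent member of its family, had 2 body peaks shared by both lists. The stronger had a fold of 8.34 in list 1 from 24 reads and 4.11 in list 2 from 25 reads, near the middle of the span. Sfrp1 had an end peak of 28 reads in list 2 alone (fold 2.62). Dkk1, Dkk2, Dkk4, Sfrp2, Sfrp4 and Sfrp5 had no peak in either list. The nearest shared peak lay from 2.23 kb (Sfrp5) to 503 kb (Dkk2) away.

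Ctnnb1 had the deepest gene-end peak of the 50 genes. Ctnnb1 encodes β-catenin, the transcriptional coactivator of the canonical branch and a component of adherens junctions (chromosome 9, 120933400 to 120960507). Its start carried 215 reads in list 1 (exact 95% interval 187 to 246) and 220 in list 2 (192 to 251), with the summit on the same base, 26 bp after the first start. The fold there was only 2.25 and 2.21, since the background was 95.0 and 98.7 reads. At its other end Ctnnb1 had peaks of 12 reads in both lists with folds of 6.23 and 4.21. These are its strongest gene-end peaks by fold, over a background of 1.09 and 1.62 reads. List 2 held 4 further peaks of 5 to 8 reads in the distal part of the gene that list 1 did not.

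The negative regulators of β-catenin were marked unevenly. Apc (chromosome 18, 34220297 to 34322190), the scaffold of the destruction complex, had a peak of 72 reads in list 1 and 70 in list 2 with folds of 6.64 and 4.92, and 2 shared peaks inside the gene. Its end lies near that of the pseudogene Gm10548, and ends of non-coding gene models likewise lie within 2000 bp of the end peaks of Wnt11, Fzd6, Dvl3 and Tcf7l2. Axin1, the other core scaffold, had a body peak of 30 reads in list 2 alone (fold 2.44). Axin2, an inhibitor that the pathway itself induces (chromosome 11, 108917828 to 108950783), had no gene-end peak. Its listed start lies 2521 bp inside the annotated span, and a peak of 1111 bp in list 1 and 2320 bp in list 2 covered that start with folds of 2.75 and 3.50 from 54 and 55 reads. By gene start Axin2 is marked, whereas by gene end it is not.

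Dishevelled and TCF/LEF genes were each divided. Dvl3 (chromosome 16, 20516949 to 20534013) had 28 and 27 reads at its start with folds of 6.03 and 4.83. A separate list 2 peak of 25 reads 1202 bp after the Dvl3 start had a fold of 8.13. Dvl2 (chromosome 11, 70000592 to 70010109) had 88 and 83 reads with folds of 2.62 and 2.27 at an end near that of Phf23. Dvl1 had a body peak of 7 reads in list 2 alone (2.93).

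Tcf7l2 (chromosome 19, 55741797 to 55933659), the TCF factor best known from metabolic tissues, had 5 peaks in list 1 and 10 in list 2, the highest number of any member in list 2. At its start the reads were 36 in each list, with folds of 4.11 and 5.82. A wider peak 1402 bp (list 1) and 1403 bp (list 2) after the start held 68 reads in each list, with folds of 4.31 and 3.31. Inside Tcf7l2, a peak 7360 bp (list 1) and 7364 bp (list 2) after the start had the highest list 1 fold of any effector, 9.95 from 19 reads, and 5.73 from 14 reads in list 2. Tcf7l1 (chromosome 6, 72626371 to 72789045), mainly a repressor, had 30 and 32 reads at its start with folds of 3.88 and 2.97. Inside Tcf7l1 a stronger peak of 37 reads in each list had folds of 5.43 and 3.98. It lay 141259 bp (list 1) and 141261 bp (list 2) after the start. Tcf7, a factor of T cells, had a body peak of 9 and 8 reads (folds 4.97 and 2.97) and none at its ends. Lef1 had 8 reads at its start in list 2 alone (2.94).

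**Figure D5:**
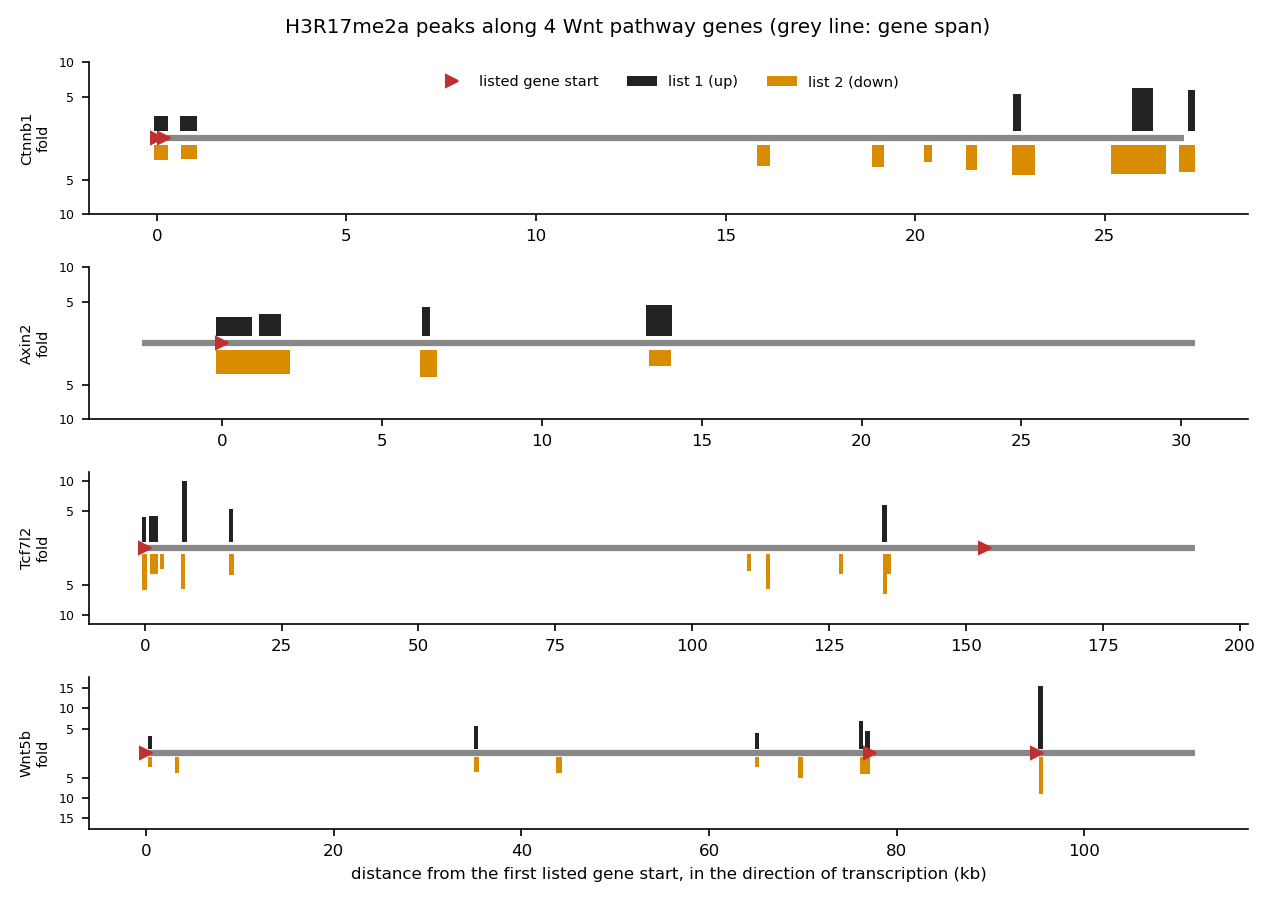
Peaks of list 1 (upward bars) and list 2 (downward bars) along Ctnnb1, Axin2, Tcf7l2 and Wnt5b, with bar length giving the fold and the horizontal axis the distance from the first listed start in kb; narrow peaks are drawn at a minimum width. Ctnnb1 and Axin2 have peaks of low fold over the start, and the tallest bar of Wnt5b (15.3 in list 1) lies at an internal listed start.

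Where strand and length allowed a call, marked ends were mostly start ends in the members as in other genes. The marked members Wnt10a, Fzd2, Fzd3, Fzd6, Fzd8, Lrp6 and Apc had no listed strand and Fzd1 was shorter than 5000 bp. They are left out here, and most marked receptors are among them. Of 27 members longer than 5000 bp with a strand in the promoter table, 12 were marked, 11 of them at the start end alone and 1, Ctnnb1, at both ends. Over 12774 such genes, 5869 were marked and 90.2% of these at the start end alone. A peak of both lists within 1000 bp of a listed start was found at 14 of 34 members with a listed start (41.2%), against 42.2% of 16456 genes. By role this was 6 of 9 effectors, 3 of 6 receptors, 5 of 15 ligands and 0 of 4 inhibitors. By gene length the shares were as follows. Among members of up to 10000 bp, 6 of 17 were marked at an end (29.5% of all such genes). Of those from 10000 to 50000 bp 8 of 23 were (46.5%), and of longer ones 6 of 10 (44.7%). Of members longer than 50000 bp, 6 of 10 had a shared body peak (59.8%). The roles differ in length, with medians of 22906 bp for ligands, 5277 bp for receptors, 9108 bp for inhibitors and 36857 bp for effectors, and the part of length in the differences between roles was not tested.

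Beyond the 50 genes, of 68 further pathway genes on chromosomes 1 to 19, 36 were marked at an end (52.9%, background 40.1%). The sublists ranged from 11 of 13 for the destruction complex and its kinases to 0 of 9 for other inhibitors, with no test between them. In the destruction complex list, Btrc, the ubiquitin ligase subunit that recognises β-catenin, had folds of 8.75 and 8.69. Gsk3a, a kinase that phosphorylates β-catenin, had 7.15 and 4.93, Csnk1d 3.73 and 4.43, and Fbxw11 4.61 and 3.45. Csnk1e and Apc2 were not marked at an end, but Csnk1e had a shared body peak and Apc2 an end peak in list 2 alone (2.055). Of 11 nuclear partners 8 were marked, led by the β-catenin cofactors Bcl9l (7.59 and 5.39) and Bcl9 (7.76 and 3.98), the corepressor Tle4 (5.58 and 3.82) and Pygo2 (4.20 and 4.25, at an end near that of Shc1).

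The planar polarity and calcium branch had 9 of 15 genes marked. Prickle1, a cytoplasmic polarity protein, had folds of 10.3 and 10.5, and the lowest summed rank of all marked pathway genes. Prickle4 had 5.48 and 7.33 at an end shared with 4 other genes, among them Frs3, the polarity membrane protein Vangl1 5.75 and 6.39, and the calcium-responsive factor Nfatc1 5.25 and 3.79. Among co-receptors and regulators of receptor turnover 6 of 15 were marked. The Dkk receptor Kremen1 had folds of 6.17 and 7.22, the R-spondin receptor Lgr4 3.79 and 9.22, Ptk7 5.27 and 3.22 at an end near that of Klc4, and the receptor ligase Znrf3 3.68 and 3.37. The 4 R-spondin genes, which encode secreted agonists, had no gene-end peak.

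The other inhibitors were marked at 0 of 9 gene ends, with Nkd2 the only member that had an end peak in list 2 (fold 3.16). Wif1, Sost and Ctnnbip1 had a shared body peak. Wls, the carrier that brings Wnt ligands to the cell surface, had folds of 6.80 and 5.51, and Notum was not marked. Of 6 genes that the pathway is known to induce, Myc (6.81 and 2.74) was marked at an end and Ccnd1, Nkd1, Notum, Sp5 and Lgr5 were not. Ccnd1 had a shared body peak, and Sp5 an end peak in list 2 alone (2.79). On the X chromosome Porcn, Amer1 and Prickle3 had an end peak in list 2 alone.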

How the data were processed

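Chromatin immunoprecipitation and sequencing for H3R17me2a was deposited for 2 samples of 1 group. The submitters' processing notes name FastQC, Bowtie2 and mm10, with no version. Not given in the sources used here are the peak caller, any control library, duplicate handling and whether a list pools samples. In the deposited peak tables, fold is a ratio (signal over background), each p-value and q-value was written by the authors as −log10, and the authors' score is the −log10 p scaled up and cut to whole numbers. The deposited summit offset counts bases from the peak start. Ranks and medians of fold were taken inside each list. The values of both lists are also set side by side for single genes, and the same limits of −log10 p and −log10 q were applied to both lists.

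Total depth is unknown. Reads at a summit were recovered as the whole number that gives both fold and p, with fold = (reads + 1) / (background + 1) and p from the Poisson distribution, within 0.001 on the −log10 scale. This matched 99.93% of 1500 list 1 peaks, against 1.33% with p exchanged. In list 2, with reads multiplied by 0.618, it matched 99.73% of 1500 peaks, against 1.80%. That factor was scanned on peaks with equal summits, for the best return of list 2 p-values from list 1 reads. Background is given in ChIP reads, divided by that factor in list 2. Tested on simulated data, 100% of 387 peaks without and 384 with the factor returned their reads. Intervals cover counting error only.

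Genes came from RefSeq, GRCm38.p6. Overlap meant at least 1 bp. The table gives no exons, so exonic and intronic positions were not analysed here. Promoters were matched for 34 of 50 members. Alternatives were windows of 500 and 3000 bp, peak midpoints, stricter −log10 p (5) or −log10 q (2), the upper 50% by fold, each list alone and gene starts. Python 3.11.15, numpy 2.4.6, pandas 2.3.3 and scipy 1.17.1 were used. Members, lists and tests were chosen with earlier results of these data known. Named genes were all members, and up to 4 further genes per sublist by summed rank of fold. Promoters went to up to 6 marked members by role and rank of fold, leaving out chromosome 18, of which Wnt2b, whose promoter met a peak in list 2 alone, is not printed.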

Additional observations from a re-analysis of the deposited data

How the results depend on the processing

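No test was run, so these values describe counts and medians. Of 69 alternative values for counts and medians, 52 stayed within 1.5 times the main count (medians: equal to it) and 17 did not. With the upper 50% of peaks by fold alone, marked members fell from 20 to 6, effectors to 3, ligands to 2, receptors to 1, members with a body peak to 10 and further pathway genes to 12, a setting that keeps fewer peaks. A −log10 p of at least 5 and a −log10 q of at least 2 each left 5 of 8 marked receptors. Such limits are stricter in list 2 for equal reads. A window of 500 bp left 3 of 6 marked ligands, and median folds of 3.80 in list 1 and 3.03 in list 2. Peak midpoints gave a list 1 median of 3.88. A window of 3000 bp marked 1 secreted inhibitor. Without the end windows 11 members had a body peak (22.0%, against 19.2% of all genes), and the 10 of the upper 50% stand against 19.5%. By gene start, where fewer genes could be scored, 3 receptors and 23 further genes were marked. Using a single list, marked members ranged from 20 to 25, ligands from 6 to 8, receptors from 8 to 9, effectors from 6 to 7, inhibitors from 0 to 1, further genes from 36 to 44 and body-marked members from 24 to 33 (45.2% and 55.3% of all genes in list 1 and list 2). No paired analysis was possible because there is 1 group.

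Peaks of about 10 reads, as at Wnt2b, Wnt3a, Wnt5a, Wnt6 and Tcf7, have wide counting intervals. In list 2, whose p-values rest on scaled reads, 51.3% of peaks had a −log10 p below 5. Absence of a peak means none was called at an unknown depth.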
